A study of Homo sapiens with 4 samples.

Results

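MCM7 encodes a subunit of the replicative helicase, and E2F1 encodes a transcription factor of the G1 to S transition. Both were followed here in SH-SY5Y neuroblastoma cells treated with origamicin. They are 2 of the 14884 genes with a named probe set on the array, and each has 1 such probe set. The pair was chosen by its measured change, MCM7 lower and E2F1 higher after origamicin on these same arrays, so their own values below are a description and carry no test. SH-SY5Y is a human neuroblastoma cell line that derives from the sympathetic nervous system. Cells received origamicin, which the submitters describe as an inhibitor of protein disulfide isomerase, at 30 µM for 24 h (2 arrays), or the solvent methanol for 24 h (mock, 2 arrays). RNA was read on Affymetrix Human Gene 2.0 ST arrays, and each value is the deposited log2 signal of a probe set. Arrays within a group are labelled biological replicates, and nothing states that separate passages were used, so the spread behind a p-value here may be partly technical.

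The MCM2 to MCM7 proteins form a ring of 6 different subunits that is loaded onto replication origins in G1 by ORC, CDC6 and CDT1. In S phase the ring is switched on by the kinase CDC7 with DBF4, and by CDC45 and GINS, and it then unwinds DNA ahead of the polymerases. E2F1 binds DNA together with a DP partner and activates genes of S phase entry, among them MCM genes, CDC6, cyclin E and E2F1 itself. The retinoblastoma protein RB1 holds E2F1 back. MCM7 also carries the microRNA genes MIR106B, MIR93 and MIR25 in an intron, and miR-106b and miR-93 are known to target the E2F1 message.

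The promoters of both genes are shown first, since both hold matches to the DNA motif of E2F factors. MCM7 lies on the minus strand of chromosome 7 (chr7:100092728-100101397, RefSeq, GRCh38.p14) and E2F1 on the minus strand of chromosome 20 (chr20:33675477-33686385). The 250 bases before each start are printed 5′ to 3′ on the gene's strand, chr7:100101398-100101647 for MCM7 and chr20:33686386-33686635 for E2F1, with motif matches in capitals. The E2F motif was searched as TTTCCCGC, TTTCGCGC, TTTGCCGC and TTTGGCGC on both strands, and the E-box, the motif of MYC and its partner MAX, as CACGTG.
MCM7: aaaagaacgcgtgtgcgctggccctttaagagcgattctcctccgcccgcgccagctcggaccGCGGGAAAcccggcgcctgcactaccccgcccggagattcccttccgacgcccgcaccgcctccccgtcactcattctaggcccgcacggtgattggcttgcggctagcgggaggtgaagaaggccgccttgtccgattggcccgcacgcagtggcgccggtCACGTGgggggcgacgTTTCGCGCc
E2F1: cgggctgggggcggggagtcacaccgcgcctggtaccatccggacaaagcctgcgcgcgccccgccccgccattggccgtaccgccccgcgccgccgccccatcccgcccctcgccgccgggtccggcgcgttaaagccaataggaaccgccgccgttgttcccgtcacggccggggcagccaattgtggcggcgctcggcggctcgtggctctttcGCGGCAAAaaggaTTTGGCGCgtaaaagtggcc

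Each promoter held 2 matches to the E2F motif. In MCM7 one match lay 2 to 9 bases before the start and the other, on the opposite strand, 180 to 187 bases before it. In E2F1 the matches lay 13 to 20 and, on the opposite strand, 26 to 33 bases before the start. MCM7 also held an E-box, 20 to 25 bases before the start, and E2F1 held none in this window. RefSeq gives 3 start windows for MCM7, and the one printed is the only one of them with a match to either motif. Of 35116 such windows over all genes, 2.79% held the E2F motif, 6.34% the E-box and 0.225% both. A match is a string of letters and not a measured binding site.

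The miRNA genes in MCM7 are shown by their main mature strands (RefSeq, GRCh38.p14), with the seed, bases 2 to 8, in capitals. They lie on the same strand as MCM7 and within its span.
hsa-miR-106b-5p, chr7:100094043-100094063: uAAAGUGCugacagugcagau
hsa-miR-93-5p, chr7:100093815-100093837: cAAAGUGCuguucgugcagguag
hsa-miR-25-3p, chr7:100093571-100093592: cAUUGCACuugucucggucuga
The strands of miR-106b and miR-93 share the seed AAAGUGC, and miR-25 has a different seed.

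The first question was how far apart the 2 genes moved. MCM7 had log2 values of 10.12 and 10.11 in origamicin cells, against 10.59 and 10.63 in mock cells. Both origamicin arrays lay below both mock arrays, and the arrays of a group lay close together. MCM7 was 1.41-fold lower with origamicin, a log2 change of -0.50 ± 0.06 (moderated SE from limma, 2 arrays per group). E2F1 had log2 values of 8.25 and 8.25 in origamicin cells, against 8.002 and 8.04 in mock cells. Here both origamicin arrays lay above both mock arrays. E2F1 was 1.17-fold higher, a log2 change of 0.23 ± 0.06. Expressed as a difference between the 2 log2 changes, MCM7 minus E2F1 was -0.73.

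**Figure D1:**
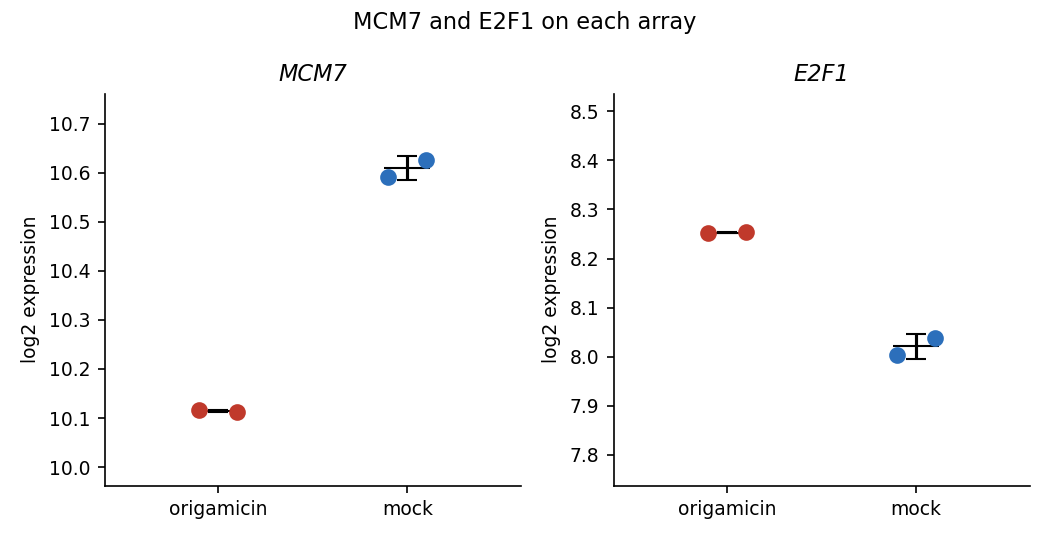
Log2 expression of MCM7 and E2F1 on each of the 4 arrays (points), with the group mean and SD (bars, n = 2 arrays per group, origamicin left of mock). MCM7 lies at 10.12 and 10.11 with origamicin against 10.59 and 10.63 in mock cells, and E2F1 at 8.25 and 8.25 against 8.002 and 8.04, so the groups do not overlap for either gene.

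The 2 changes differ in how unusual they are on these arrays. MCM7 had the 123rd lowest change of the 11883 genes tested. Among the 424 other genes within 0.5 log2 units of its signal, 2 had a change as low or lower, and the 5th and 95th percentiles of change among them were -0.23 and 0.22. E2F1 had the 1037th highest change, so 8.72% of the genes tested had a higher one. Of the 1757 other genes within 0.5 log2 units of its signal, 134 changed by as much or more in that direction, and E2F1 lay inside their 95th percentile of 0.28. The groups did not overlap for 48.6% of all genes tested, 22.7% on the higher side and 25.8% on the lower side, so the gap between groups in itself does not set either gene apart.

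None of the remaining 5 subunits of the ring was as low as MCM7. MCM6 came nearest, with log2 values of 9.26 and 9.43 in origamicin cells against 9.53 and 9.55 in mock cells, a change of -0.19 ± 0.08 (95% interval -0.42 to 0.03). MCM2 stood at -0.00013 ± 0.074 (95% interval -0.20 to 0.20) and MCM5 at -0.0087 ± 0.064 (-0.18 to 0.16), and both change sign when the arrays are scaled differently. MCM3 (0.05 ± 0.06) and MCM4 (0.10 ± 0.06) stood slightly on the higher side, with 95% intervals of -0.11 to 0.22 and -0.07 to 0.27. The 95% interval of MCM7 itself ran from -0.66 to -0.33. The interval of MCM6 overlapped it, while those of MCM2 to MCM5 lay above it. The difference between subunits was not tested, because MCM7 had been chosen for its change. The median change of the 5 was -0.00013, beside -0.0072 over all genes tested, and it ran from -0.04 without mock replicate 2 to 0.05 without mock replicate 1. No subunit among the 5 passed an adjusted p of 0.05 in limma, where 0.0% of all genes passed, or in limma with an intensity trend, where 4.3% did, and 0 of the 5 had an unadjusted p under 0.05 in limma, beside 16.4% of all genes.

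Of the 5 tested relatives and binding partners of the ring, MCM8 alone passed, and only with an intensity trend (20%, beside 4.3% of all genes tested). MCM8, which forms a separate helicase with MCM9 that acts in recombination repair, had log2 values of 11.15 and 11.19 in origamicin cells against 10.92 and 10.99 in mock cells. Its change of 0.21 ± 0.07 passed in limma with an intensity trend (adjusted p = 0.045) but not in the chosen limma fit (adjusted p = 0.25). MCM9 stood at 0.19 ± 0.11. MCM10, which helps to activate the loaded helicase, stood at 0.05 ± 0.06. MCMBP, which binds MCM3 to MCM7 in a complex without MCM2, stood at -0.09 ± 0.06, and MCM3AP, named for its binding to MCM3, at -0.04 ± 0.08. MCMDC2 was dim, between 2.32 and 2.45 on the 4 arrays, and was not tested.

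Within the E2F family, 3 of the 6 other measured genes were higher and 3 lower, and none passed in either limma fit, while 1 of the 6 (16.7%, beside 16.4% of all genes tested), E2F7, had an unadjusted p under 0.05 in limma. The activator E2F2 had log2 values of 8.31 and 8.32 in origamicin cells against 8.19 and 8.03 in mock cells, a change of 0.21 ± 0.08 (95% interval -0.0095 to 0.43). The repressor E2F7 had 7.91 and 7.81 in origamicin cells against 7.64 and 7.66 in mock cells, a change of 0.21 ± 0.07 (0.02 to 0.40). For E2F2, E2F7 and E2F8, as for E2F1, the origamicin arrays lay above the mock arrays, as they did for 22.7% of all genes tested. The repressor E2F8 stood at 0.13 ± 0.08 and the activator E2F3 at -0.02 ± 0.07. The DP partners stood at -0.11 ± 0.07 for TFDP1 and -0.05 ± 0.08 for TFDP2. The median change of these 6 was 0.05, and it was 0.0056 without origamicin replicate 2, 0.02 without mock replicate 2, 0.09 without mock replicate 1 and 0.09 without origamicin replicate 1. E2F4, E2F5 and E2F6 lack a named probe set and were not analysed here.

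**Figure D2:**
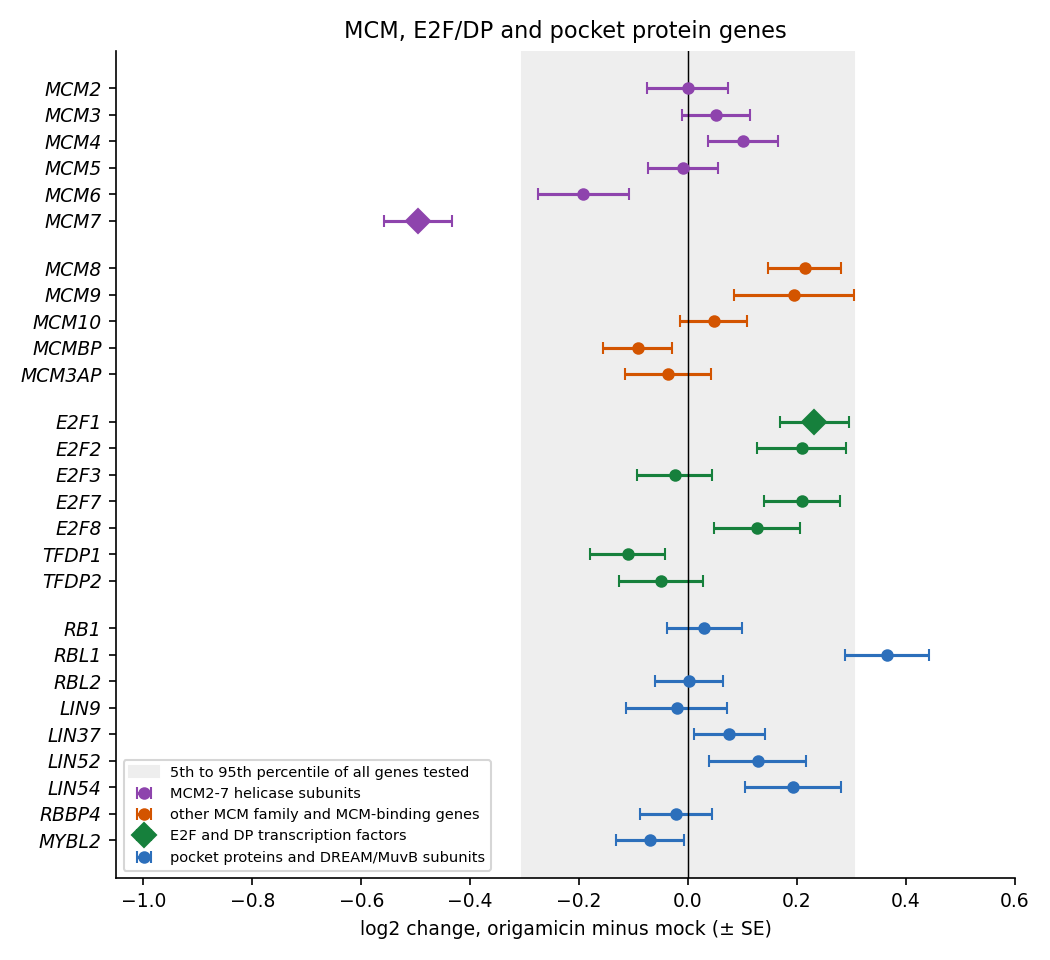
Log2 change, origamicin minus mock, with its SE for the tested genes of the MCM, E2F/DP and pocket protein groups (diamonds mark MCM7 and E2F1; the shaded band runs from -0.30 to 0.31, the 5th to 95th percentile of all genes tested). MCM7 at -0.50 lies outside the band on the lower side and RBL1 at 0.37 on the higher side, while MCM2 to MCM6 and all E2F and DP genes, E2F1 included, lie inside it.

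Pocket proteins such as RB1 hold E2F factors back. Among the 9 tested genes of pocket proteins and of the MuvB complex with its partner MYBL2, RBL1 had the largest change. Differences between these genes were not tested. RBL1 (p107), a pocket protein that binds E2F4 and E2F5, had log2 values of 9.23 and 9.36 in origamicin cells against 8.96 and 8.90 in mock cells. Its change of 0.37 ± 0.08 passed with an intensity trend (adjusted p = 0.023) but not in the chosen limma fit (adjusted p = 0.18). RB1 stood at 0.03 ± 0.07 (95% interval -0.15 to 0.21) and RBL2 (p130) at 0.0019 ± 0.062 (-0.16 to 0.17), and RBL2 turns negative when array medians are set equal, which shifts all genes alike. Among subunits of the MuvB complex, which represses cell cycle genes together with pocket proteins, LIN54 stood at 0.19 ± 0.09, LIN52 at 0.13 ± 0.09, LIN37 at 0.08 ± 0.07, LIN9 at -0.02 ± 0.09 and RBBP4 at -0.02 ± 0.07, with RBBP4 turning positive under quantile normalization. MYBL2, which binds MuvB to activate later cell cycle genes, stood at -0.07 ± 0.06, and none of these genes passed in either fit.

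Of the 10 tested cyclins, CDKs and CDK regulators of G1 and S phase, 7 (70%) were higher, beside 47.8% of all genes tested. The other 3 (30%) were lower, beside 52.1%. The 7 include CCND2, whose named probe sets disagree (0.28 and -0.19), and the 3 include CDK4 at -0.0051, whose sign changes with the scaling. CDC25A, a phosphatase that activates CDK2 and a known E2F target, had log2 values of 8.54 and 8.51 in origamicin cells against 8.22 and 8.18 in mock cells, a change of 0.32 ± 0.06. CCND1, the cyclin D1 that starts RB1 phosphorylation, had 10.65 and 10.62 in origamicin cells against 10.41 and 10.40 in mock cells, a change of 0.23 ± 0.06. CDC25A passed with an intensity trend (adjusted p = 0.022) and not in the chosen limma fit (adjusted p = 0.17), and CCND1 passed with an intensity trend (adjusted p = 0.029) and not in the chosen fit (adjusted p = 0.22 with limma). CCND3 stood at 0.30 ± 0.09 and cyclin E1 (CCNE1) at 0.18 ± 0.08, without passing. CCNA2, the cyclin A of S and G2 phase, went the other way, at 9.99 and 10.04 in origamicin cells against 10.24 and 10.25 in mock cells. Its change of -0.23 ± 0.06 passed with an intensity trend (adjusted p = 0.034) and not in the chosen limma fit (adjusted p = 0.23). In all, 3 of the 10 passed with an intensity trend (30%, beside 4.3% of all genes tested). CDKN1A, the CDK inhibitor p21, lacks a named probe set and was not analysed here.

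Of the factors that load the MCM ring, only CDC6 and CDT1 were measured, since ORC1 to ORC6 and the inhibitor GMNN lack a named probe set here. Both stood on the higher side, and neither passed in either fit. CDC6 had log2 values of 8.68 and 8.68 in origamicin cells against 8.43 and 8.47 in mock cells, a change of 0.23 ± 0.06 (adjusted p = 0.22 with limma). CDT1 had 8.98 and 8.83 in origamicin cells against 8.69 and 8.57 in mock cells, a change of 0.28 ± 0.09 (adjusted p = 0.26 with limma). The 2 subunits of the kinase that phosphorylates the loaded ring stood on the lower side. CDC7, its catalytic subunit, had 8.49 and 8.51 in origamicin cells against 8.73 and 8.83 in mock cells. Its change of -0.29 ± 0.07 passed with an intensity trend (adjusted p = 0.038) and not in the chosen limma fit (adjusted p = 0.20). DBF4, its activating subunit, stood at -0.23 ± 0.10 and did not pass in either fit, and for both genes the origamicin arrays lay below the mock arrays, as for 25.8% of all genes tested.

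Of the 15 genes of helicase activation and fork protection that were tested, 9 were higher and 6 lower, with a median change of 0.05. CLSPN, which encodes the checkpoint adaptor claspin, stood at 0.30 ± 0.10, and its dimmer named probe set at -0.03. Of the GINS subunits, none of which passed in either fit, GINS3 stood at 0.17 ± 0.06, GINS1 at -0.01 ± 0.08 (its sign changes with the scaling) and GINS2 at -0.11 ± 0.09. GINS4 stood at 0.18 ± 0.07 on its brighter probe set and at -0.34 on a dim one, so its direction is uncertain. CDC45 stood at -0.11 ± 0.07. Of these 15 genes, CDC7 alone passed with an intensity trend (6.67%, beside 4.3% of all genes tested) and none in the chosen fit.

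The measured genes downstream of the helicase had smaller changes than MCM7. The sliding clamp PCNA had log2 values of 10.93 and 10.95 in origamicin cells against 10.82 and 10.84 in mock cells, a change of 0.11 ± 0.06. The flap endonuclease FEN1 stood at 0.07 ± 0.08 and the nuclease and helicase DNA2 at -0.17 ± 0.06. The other 21 genes on the list of polymerases, clamp loaders and ligase have no named probe set here. Of the nucleotide supply genes of S phase, RRM1 (0.12 ± 0.07), RRM2 (0.10 ± 0.06) and TYMS (0.08 ± 0.06) stood on the higher side and DCK (-0.14 ± 0.08) on the lower side. Factors that take the helicase off chromatin after replication had a median change of 0.10, with NPLOC4 at 0.15 ± 0.07, VCP at 0.13 ± 0.07, TRAIP at 0.12 ± 0.10 and UFD1 at 0.11 ± 0.09. LRR1 and CUL2, parts of the ligase that marks MCM7 itself for this removal, stood at 0.04 ± 0.08 and -0.00039 ± 0.070, and CUL2 changes sign with the scaling. None of these genes passed in either fit.

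E2F1 also activates genes of apoptosis when it is in excess. TP73, a p53 relative and a known E2F1 target, had log2 values of 7.12 and 7.29 in origamicin cells against 6.96 and 6.91 in mock cells, a change of 0.27 ± 0.08 (adjusted p = 0.25 with limma). The BH3-only genes BBC3 and PMAIP1 stood at 0.13 ± 0.09 and -0.12 ± 0.08, and APAF1, the scaffold of the apoptosome, at 0.11 ± 0.07. None of the 5 genes tested on this list passed in either fit.

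Over all lists together, 79 genes other than MCM7 and E2F1 were tested, of 142 listed. Another 8 were dim and 55 have no named probe set here. In the chosen limma fit none passed an adjusted p of 0.05, and 16 had an unadjusted p under 0.05. Of these, 12 were higher (15.2% of 79, beside 7.99% of all genes tested) and 4 lower (5.06%, beside 8.42%). With an intensity trend 7 passed, 8.86% of the 79 beside 4.3% of all genes. The 4 higher (5.06%, beside 2.14%) were RBL1, CDC25A, CCND1 and MCM8, and the 3 lower (3.80%, beside 2.16%) were CDC7, CCNA2 and MYC. At an adjusted p of 0.1 in the chosen fit only MYC passed, where 0.446% of all genes did. The origamicin arrays lay wholly above the mock arrays for 38 genes (48.1%, beside 22.7%) and wholly below for 15 (19.0%, beside 25.8%). In all, 52 were higher and 27 lower, with a median change of 0.07 beside -0.0072 over all genes tested. The split was 50 to 29 with equal array medians, and 57 to 22 with quantile normalization and with cyclic loess. The lists were drawn up with earlier results of these arrays known, so these shares describe the lists and test nothing.

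**Figure D3:**
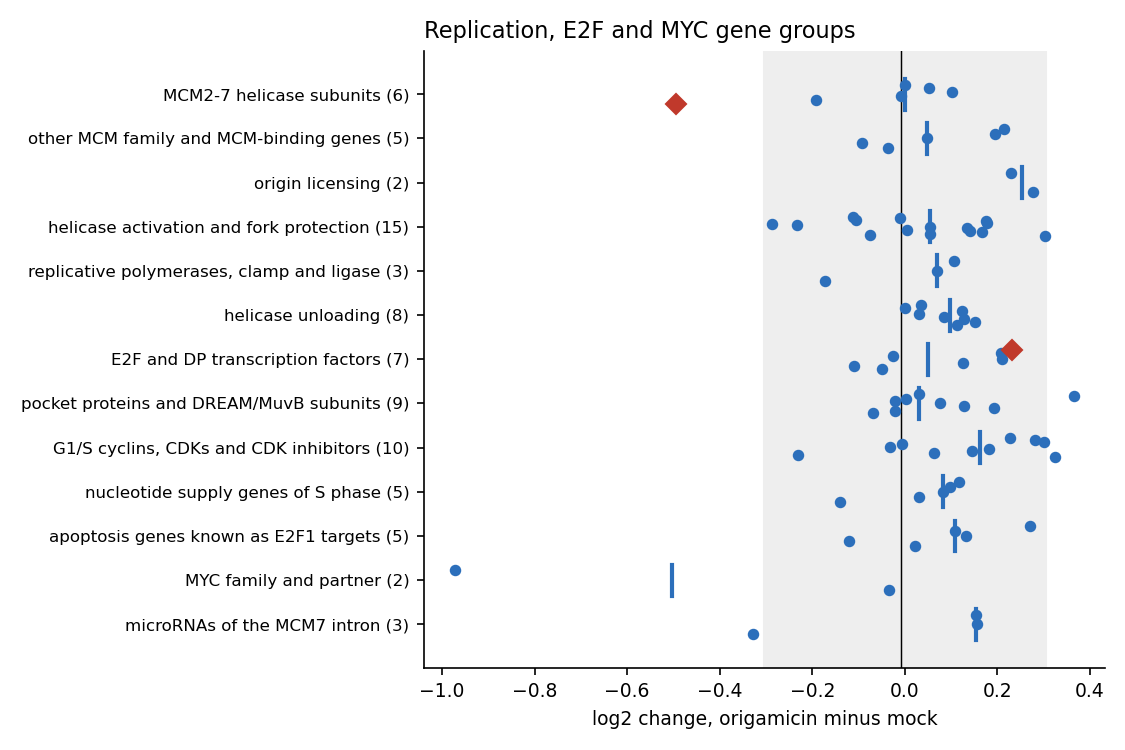
Log2 change, origamicin minus mock, of every tested gene (points) in each replication, E2F and MYC group, with the number tested in brackets, the group's median without MCM7 and E2F1 (vertical ticks) and the 5th to 95th percentile of all genes tested (shaded). Red diamonds mark MCM7 at -0.50 and E2F1 at 0.23; medians of most groups lie above the all-gene median of -0.0072, and MYC at -0.97 lies farthest out.

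Pathway genes with the E2F motif went in both directions, as did those without it. Of 63 tested pathway genes with a start window, 18 (28.6%) held the motif in the 250 bases before a start, beside 5.07% of all tested genes with a window. Of those 18, 11 were higher and 7 lower, with a median change of 0.04, beside 0.06 for the 45 without it. Over all tested genes with a window the medians were -0.0056 with the motif and -0.0100 without it. Genes with the motif ran from CDC7 at -0.29 to RBL1 at 0.37. MCM6, the subunit nearest to MCM7 in its change, held 4 matches that overlap in pairs, and MCM3 held 1. MCM2 held none and, like MCM7, an E-box. 1 match of each is printed with 14 bases on each side, or up to the start, to show what was found beside the other subunits' values. Capitals mark that match alone, and in MCM6 it overlaps a match on the opposite strand that runs into the lower-case letters.
MCM3, chr6:52284895-52284930: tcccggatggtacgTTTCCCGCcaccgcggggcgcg
MCM6, chr2:135876512-135876547: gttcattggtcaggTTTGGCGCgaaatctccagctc
MCM2, chr3:127598386-127598410: gggctttggtgggtCACGTGaacca
The strand is minus for MCM3 and MCM6 and plus for MCM2.

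MYC, a transcription factor that binds E-boxes with MAX, had log2 values of 7.98 and 8.08 in origamicin cells against 8.94 and 9.07 in mock cells. Its change of -0.97 ± 0.08 had an adjusted p of 0.095 in limma and passed with an intensity trend (adjusted p = 0.0019). MAX stood at -0.03 ± 0.06. MYCN and MYCL have no named probe set here. Over the 973 tested genes with an E-box in the window the median change was -0.0095, beside -0.0099 for tested genes without one.

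None of the 3 miRNA genes inside MCM7 passed in either fit, and differences between them were not tested. MIR25 had log2 values of 6.31 and 6.03 in origamicin cells against 6.60 and 6.39 in mock cells, a change of -0.33 ± 0.13 (95% interval -0.68 to 0.02; adjusted p = 0.33 with limma). Its origamicin arrays lay below its mock arrays. MIR93 had 4.95 and 4.99 in origamicin cells against 4.66 and 4.96 in mock cells, a change of 0.16 ± 0.12 (-0.16 to 0.47). MIR106B had 5.999 and 5.47 in origamicin cells against 5.49 and 5.67 in mock cells, a change of 0.15 ± 0.20 (-0.37 to 0.68). The groups overlapped for MIR93 and MIR106B, and the intervals of all 3 are wide and include 0. These probe sets are annotated to the miRNA genes and do not show the level of the mature strands printed above. Of the paralogous clusters, the host transcript MIR17HG stood at 0.12 ± 0.13, and MIR106A, MIR18B, MIR20B, MIR19B2, MIR92A2 and MIR363 were dim, between 1.10 and 2.71 on the 4 arrays.

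None of the measured genes beside MCM7 on chromosome 7 was as low as MCM7. COPS6, a subunit of the COP9 signalosome that lies 540 bases past the end of MCM7, had log2 values of 10.39 and 10.24 in origamicin cells against 10.34 and 10.37 in mock cells, a change of -0.04 ± 0.08 (95% interval -0.25 to 0.17). ZNF3 stood at -0.03 ± 0.09. On the promoter side CNPY4 stood at 0.19 ± 0.07 and MBLAC1 at 0.18 ± 0.08. None of the 4 passed in either fit. AP4M1 runs on the opposite strand from MCM7, and its start window overlaps the printed one and holds both E2F matches and the E-box. AP4M1 lacks a named probe set and was not analysed here.

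**Figure D4:**
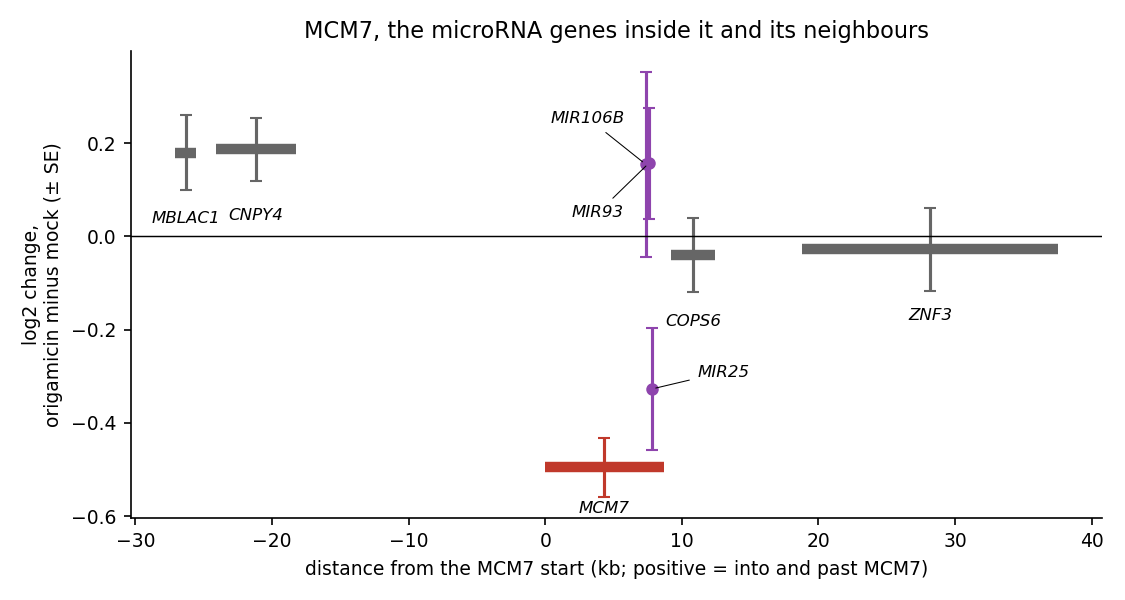
Log2 change, origamicin minus mock (± SE), of MCM7 (red), the miRNA genes inside it (purple) and the nearest measured neighbours (grey), against distance from the MCM7 start in kb, bars spanning each gene. MCM7 lies at -0.50 and MIR25 at -0.33, while MIR93, MIR106B, COPS6, ZNF3, CNPY4 and MBLAC1 lie between -0.04 and 0.19.

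Beside E2F1 on chromosome 20, NECAB3 starts 128 bases past the end of E2F1 on the same strand. NECAB3 had log2 values of 6.55 and 6.67 in origamicin cells against 6.26 and 6.20 in mock cells, a change of 0.38 ± 0.08 (adjusted p = 0.18 with limma and 0.067 with an intensity trend). Both origamicin arrays lay above both mock arrays, and the change was larger than that of E2F1, although neither fit called it. ACTL10 (0.14 ± 0.10), ZNF341 (0.11 ± 0.10) and CHMP4B (0.07 ± 0.07) stood on the higher side without passing.

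The genes most like each of the 2 in their pattern were found by the Euclidean distance between log2 profiles over the 4 arrays, each gene centred on its own mean. The gene nearest to E2F1 among all those tested was CDC6, the origin loader and known E2F target, at a distance of 0.0064, where the median gene lay at 0.30. ZFP90 (0.012), GPR20 (0.016), PREPL (0.021) and SASH3 (0.022) followed, and none of these is on the replication lists. Their order was not tested. The genes nearest to MCM7 were GLCCI1 (0.024), OGDHL (0.032), PXYLP1 (0.043), CREB5 (0.044) and GSTO1 (0.046), where the median gene lay at 0.52. None of these 5 is on the replication lists. With 4 arrays in 2 groups, likeness rests mostly on the size of the change.

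**Figure D5:**
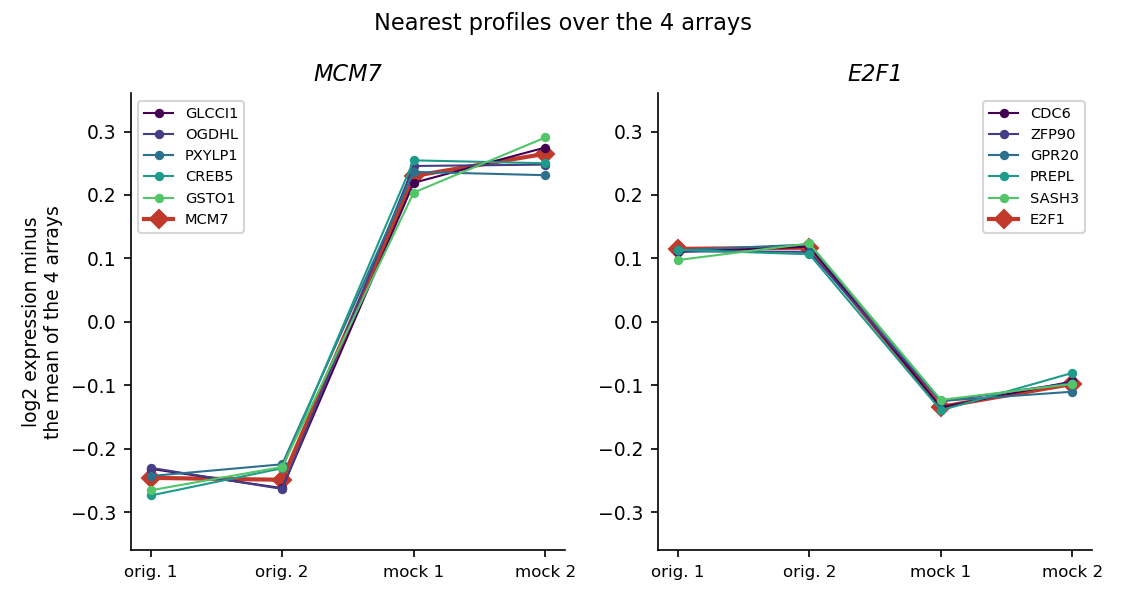
Log2 expression minus each gene's mean over the 4 arrays, for MCM7 and E2F1 (red diamonds) and the 5 tested genes nearest to each (circles); lines only join the values of 1 gene. The MCM7 group sits below its mean with origamicin and above it in mock cells, the E2F1 group the reverse, and CDC6 lies on E2F1 at a distance of 0.0064.

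Markers of cell type and of cycling were read on the same arrays, and none passed in the chosen limma fit. With an intensity trend, 2.14% of all genes passed on the higher side and 2.16% on the lower. Among noradrenergic neuroblastoma markers, DBH lay at 12.38 and 12.33 in origamicin cells against 12.53 and 12.53 in mock cells, while TH lay at 5.64 and 5.69 in origamicin cells against 5.52 and 5.82 in mock cells. The mean log2 level over the 9 tested was 9.51 and 9.53 in origamicin cells against 9.80 and 9.86 in mock cells. In this list 8 of 9 were lower (beside 52.1% of all genes tested). They include TH at -0.0052 ± 0.12 and GATA3 at -0.02 ± 0.06, whose directions are uncertain. The 4 passing with an intensity trend were DDC, ISL1, CHGA and CHGB. Mesenchymal neuroblastoma markers averaged 6.81 and 6.71 in origamicin cells against 6.46 and 6.41 in mock cells, and 7 of 7 were higher (beside 47.8%), 4 of them passing with an intensity trend. Glial and Schwann cell markers averaged 4.74 and 4.83 in origamicin cells against 4.68 and 4.77 in mock cells, with none above 5.71 on any array and none passing in either fit. Of 5 proliferation markers 4 were lower, of which CCNB1 passed with an intensity trend (adjusted p = 0.016), with CCNB1 at -0.33 ± 0.06, CDK1 at -0.28 ± 0.09, BIRC5 at -0.11 ± 0.08 and TOP2A at -0.12 ± 0.06, while MKI67 stood at 0.10 ± 0.06. The part of these shifts in the changes of MCM7 and E2F1 was not tested. In RNA from whole cultures, fewer cells of a type or cycle phase and less RNA per cell cannot be told apart.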

How the data were processed

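RNA from SH-SY5Y cells was read on 4 Affymetrix Human Gene 2.0 ST arrays, 2 per group. The authors deposited a table of log2 probe set signals, made with RMA per the submitters' processing notes, which also name limma and give no version of either. Upstream genome build: not given in the sources used here. Deposited values ran from 0.574 to 14.5 with array medians of 4.37 to 4.42 and were not normalized again. RMA summaries can understate changes of very bright probe sets. Arrays have no counting depth; their number limits the precision.

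Of 53617 probe sets, 16098 were annotated to 1 gene and 37519 are unnamed here. Per gene the probe set with the highest mean was kept, and a gene counted as dim under 3.82, the 40th percentile over probe sets. The remaining 11883 genes were fitted by limma 3.58.1 under R 4.3.3 (origamicin minus mock, single prior variance, two-sided), with Benjamini-Hochberg adjustment over all 11883 genes and a threshold of 0.05. The fit was tested on simulated data. No gene passed in it over the whole array, so limma with an intensity trend is given beside it.

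The members, gene lists, tests and alternatives were chosen with earlier results of these data known. Named were all measured MCM, E2F, DP and MYC family genes, the miRNA genes in MCM7, fixed regulators, the 4 smallest p of each other list, the nearest 2 measured genes on each side of MCM7 and E2F1 and the 5 nearest profiles; DBF4, CDC45, GINS1, GINS2, LRR1, CUL2, LIN9, RBBP4, MYBL2, CCND2, CDK4, RECQL4 and the marker genes were chosen after their values were seen. Alternatives were a replicate block, other filters, normalizations, probe set rules and prior variances, and leaving out each array.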

Additional observations from a re-analysis of the deposited data

How the results depend on the processing

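MCM7 was lower and E2F1 higher under all 14 alternatives run, but 7 of these (block, filters, probe set rules and prior variances) cannot move the change of a gene with 1 probe set in this balanced design. The other 7 were the scalings and the fits without 1 array. Leaving out 1 array gave -0.51 to -0.48 for MCM7, 0.21 to 0.25 for E2F1 and -0.73 to -0.72 for MCM7 minus E2F1, and 0 pathway genes called. Quantile normalization moved MCM7 to -0.47 and the difference to -0.71, by more than the spread between replicates. Without 1 array the median of MCM2 to MCM6 ran from -0.037 to 0.053, so it has no firm direction. That of the E2F family ran from 0.0056 to 0.091, on the higher side each time but near 0 at its lowest. The number of pathway genes passing was 0 of 79 in the chosen fit. It was 7 of 79 with an intensity trend, beside 4.3% of all genes tested. With the 60th percentile filter it was 1 of 77, beside 92 of all 9269 genes. At an adjusted p of 0.10 it was 1 of 79, beside 0.446% of all genes tested. At an unadjusted p of 0.05 it was 16 of 79, beside 16.4%. The cause was not tested. Of 81 genes, MCM7 and E2F1 included, 8 changed sign across scalings, each within 0.04 of 0, and RBL2 and RECQL4 did so only with equal array medians, which shifts every gene alike. With the replicate number as a block, MCM7 was -0.50 and E2F1 0.23, values that a balanced block cannot change, and the pathway calls were 0. Same-numbered arrays did not deviate together (r = -0.02 across 11883 genes), and 2 pairs cannot show whether the numbers pair the samples. Each group rests on 2 arrays, and the miRNA genes have wide intervals.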
